A study of Rattus norvegicus with 5 samples.

Results

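The genes described here are 10 transcriptional regulators and signalling genes of the immediate early and Krüppel-like classes: Egr1, Fos, Fosb, Jun, Junb, Ier2, Ier3, Atf3, Klf4 and Klf5. They were chosen by gene symbol, with earlier results of these data known, and each had 1 row among the 17048 rows of the expression tables. Counts and medians of these genes set beside background values below therefore only describe them. RNA was measured in 5 libraries of rat vascular smooth muscle cells, which form the muscular layer of arteries and veins. The conditions were hypoxia with In-Cl (0.1 µM), hypoxia with DPN (0.1 µM), hypoxia with E2 (10 nM), hypoxia alone, and an untreated control. The 3 ligands were given before the cells went into hypoxia, which lasted 24 h. In-Cl is the indazole compound of the series title, E2 is estradiol, the natural ligand of estrogen receptors, and DPN is a synthetic agonist that favours estrogen receptor beta. The labels name no animal, passage or clone, and the oxygen level is not given in the sources used here.

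Each condition is 1 library, so no difference below has a replicate check and no p-value is given. Every statement compares libraries. A level is the deposited value turned back from its log2 scale, taken here as a read count adjusted between libraries. Levels over all rows summed to 20663687 in the control and 22837695 in hypoxia, so the adjustment did not equalize these totals. A difference is that of the deposited log2(adjusted reads + 1) values of 2 libraries, and it understates the change of genes near 0. The interval beside it is a 95% exact (Clopper-Pearson) interval from approximate reads. It covers counting error only, leaves out the spread between cultures, and treats reads as independent molecules although the library carries no molecular identifiers. The call rule was a 2-fold difference, and 10297 rows with a mean level of at least 20 served as background. Of the 10 genes, 7 passed that filter; Fos, Fosb and Atf3 did not, with mean levels of 14.7, 13.5 and 15.6.

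The libraries held between 20173080 (E2) and 24633197 (control) approximate reads. The summed level of 10 smooth muscle markers was 336596 to 425632, spread unevenly over the genes. Acta2 alone, the smooth muscle actin, had between 108399 and 152451. Of the same list Myh11 had only 254 to 305 and Des 4.33 to 32.6. Of 7 endothelial markers, Cdh5, Kdr, Cldn5 and Emcn were listed at 0 in all 5 libraries, but Tek was at 244 to 439 and the list summed to 260 to 460. Of 7 leukocyte markers Itgam was listed at 0, but Cd14, a lipopolysaccharide receptor, was at 157 to 212 and the list summed to 222 to 286. The summed level of 8 genes known to respond to low oxygen lay between 211227 and 224059 in the hypoxic libraries, against 37376 in the control. In bulk RNA, fewer cells of a type and less RNA per cell cannot be told apart.

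Immediate early genes are transcribed directly after growth factors, serum, stretch or stress reach the cell, without the need for new protein. Kinases of the MAP kinase cascades act on serum response factor and its partners at the promoter, and the transcripts usually fade within hours because both the RNAs and the signal are short-lived. Fos and Jun proteins pair to form the AP-1 transcription factor, Egr1 is a zinc finger activator, and in injured arteries these factors are linked to growth of smooth muscle. The zinc finger factors Klf4 and Klf5 are known regulators of smooth muscle phenotype: Klf4 represses contractile genes, and Klf5 is found in proliferating and embryonic smooth muscle.

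Promoter windows of 300 bases (250 before and 50 from the transcription start) were found for 6 of the 10 genes, namely Egr1, Fosb, Junb, Ier2, Klf4 and Klf5, in RefSeq on build GRCr8. A set of 3 is printed: Egr1 and Klf5, which stood on opposite sides of the control in hypoxia, and Ier2, whose level varied least over the libraries. The Egr1 window is chr18:26736828-26737127 (plus strand), the Ier2 window chr19:40399123-40399422 (plus strand) and the Klf5 window chr15:82471831-82472130 (plus strand). Capitals mark the CArG box, which is the binding sequence of serum response factor, the cyclic AMP response element TGACGTCA, and the hypoxia response core ACGTG or GCGTG, each on either strand.
Egr1: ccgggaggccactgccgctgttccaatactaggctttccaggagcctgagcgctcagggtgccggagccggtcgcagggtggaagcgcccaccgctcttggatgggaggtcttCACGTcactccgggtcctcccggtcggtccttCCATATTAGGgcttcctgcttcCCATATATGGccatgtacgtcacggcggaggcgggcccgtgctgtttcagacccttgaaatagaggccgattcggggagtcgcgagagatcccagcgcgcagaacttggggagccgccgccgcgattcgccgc
Ier2: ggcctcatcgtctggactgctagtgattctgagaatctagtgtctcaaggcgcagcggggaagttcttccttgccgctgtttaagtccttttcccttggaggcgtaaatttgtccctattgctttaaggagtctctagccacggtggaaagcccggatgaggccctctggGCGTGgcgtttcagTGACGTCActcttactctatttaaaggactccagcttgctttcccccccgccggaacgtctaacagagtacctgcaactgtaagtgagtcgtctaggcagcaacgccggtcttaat
Klf5: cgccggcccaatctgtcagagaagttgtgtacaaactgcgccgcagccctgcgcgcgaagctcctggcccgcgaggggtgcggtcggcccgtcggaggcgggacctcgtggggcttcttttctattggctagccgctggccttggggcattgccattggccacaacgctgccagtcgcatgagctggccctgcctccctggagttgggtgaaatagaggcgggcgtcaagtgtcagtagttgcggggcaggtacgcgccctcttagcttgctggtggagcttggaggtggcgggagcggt

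The Egr1 window held 2 CArG boxes, at -105 to -96 and at -83 to -74 from the start, and 1 hypoxia core at -137 to -133. A CArG box occurred in 1.64% of all 33469 windows of this length in the RefSeq table, and in none of the other 5 windows of these genes. The Ier2 window held TGACGTCA at -66 to -59, found in 1.83% of all windows, and GCGTG at -80 to -76. The core ACGTG stood in 19.3% of all windows and GCGTG in 29.7%. Of these genes' windows, Egr1 held the first core, and Fosb, Junb, Ier2 and Klf4 the second, while the Klf5 window held neither. The AP-1 site TGACTCA (4.63% of all windows) and the full estrogen response element GGTCANNNTGACC (0.0269%) were in 0 of the 6 windows. The GC box GGGCGG was also in 0 of the 6 (33.1% of all windows), and the KLF-type letters CACCC, searched on both strands like the rest, were in Egr1, Junb and Klf5 (54.9%). None of the marked matches overlapped another marked match. These are matches of letters in 1 annotated window per gene, and they show neither binding nor its absence.

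**Figure D1:**
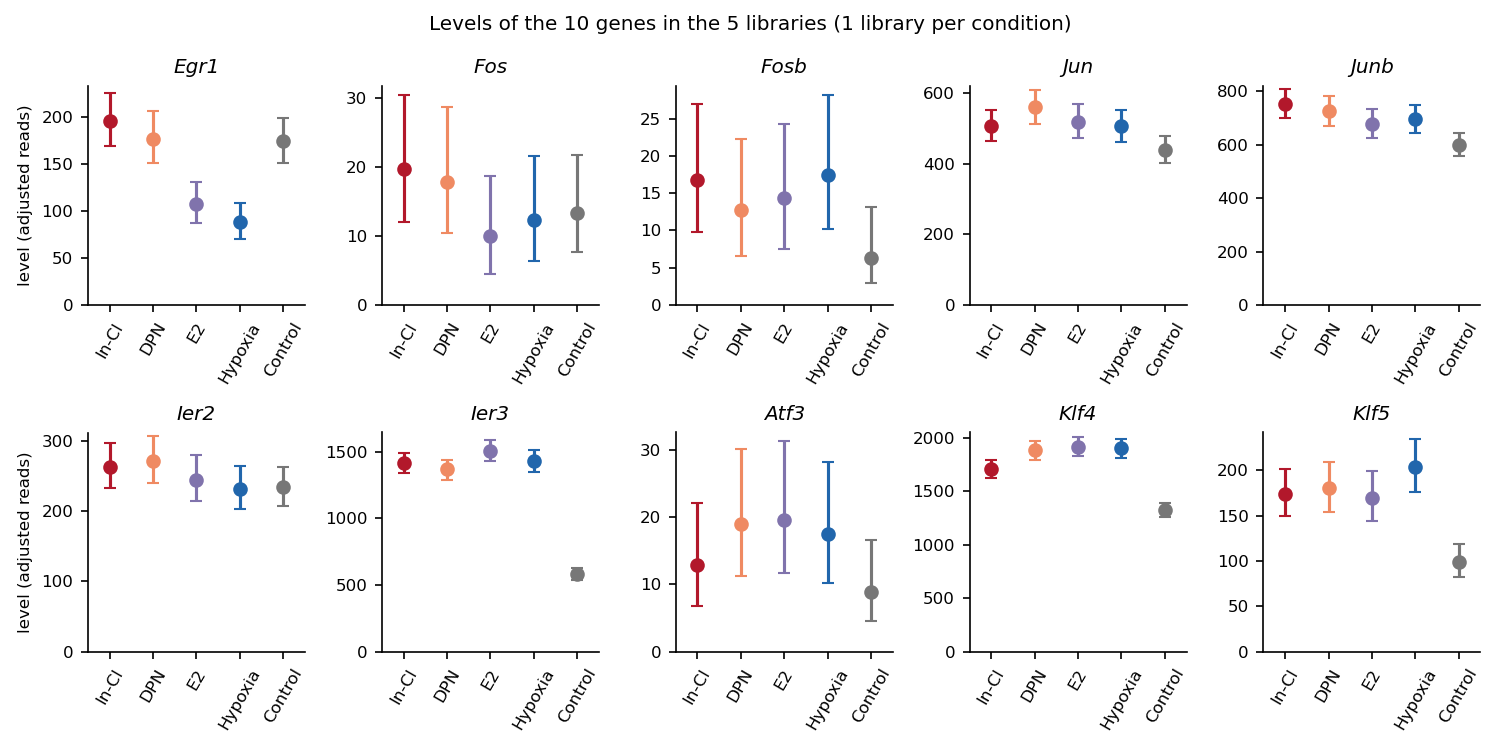
Level of each gene (adjusted reads, vertical axes from 0) in the libraries of hypoxia with In-Cl, DPN or E2, hypoxia alone and control; points are single libraries and bars exact 95% Poisson intervals for counting error only. Ier3, Klf4 and Klf5 lie lowest in the control, and Egr1 lies lowest in hypoxia alone (88.0).

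Hypoxia against control asks how these genes stand after 24 h of low oxygen. The anti-apoptotic early gene Ier3 was 2.45-fold higher in hypoxia, Klf5 2.04-fold and the AP-1 subunit Fosb 2.52-fold, while Egr1 was 1.97-fold lower, just inside the 2-fold line. Thus 3 of the 10 passed 2-fold upward and 0 downward. Among the background rows 3.54% were higher by that much and 0.923% lower. The median difference of the 10 genes was 0.37 (log2), beside -0.031 over the background rows. The 3 genes include Fosb, which is outside the background filter; of the 7 genes inside it, Ier3 and Klf5 passed 2-fold.

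Egr1 encodes the zinc finger factor that drives growth factor and tissue factor genes in vessels. Its level was 195.4 with In-Cl, 176.8 with DPN, 107.0 with E2, 88.0 in hypoxia alone and 174.0 in the control. The library of hypoxia alone was the lowest, and those of In-Cl, DPN and control were close to each other; E2, at a lower dose than the other ligands, is given beside them and not compared with them. Hypoxia alone rested on 85 approximate reads and the control on 207, and the log2 difference was -0.98 (interval -1.37 to -0.61). It passed 2-fold with reads scaled to the library total (-1.12) and after quantile normalization (-1.02). Of rows at a mean level of 50 to 500, where Egr1 lies, 1.29% were as far below the control in hypoxia.

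The AP-1 subunits of the Jun family were steady. Jun, a core AP-1 subunit, had levels of 507.1 with In-Cl, 559.7 with DPN, 518.9 with E2, 505.0 in hypoxia and 437.7 in the control. Junb, which pairs with Fos proteins and can restrain Jun, had 752.8 with In-Cl, 725.1 with DPN, 679.3 with E2, 696.0 in hypoxia and 600.3 in the control. For both genes the control was the lowest of the 5, and hypoxia stood above it by 0.21 on the log2 scale (interval 0.03 to 0.39 for Jun and 0.06 to 0.37 for Junb). Intervals that exclude 0 were common at this depth: 59.3% of the background rows had one in this comparison. With approximate reads scaled to the library total in place of the deposited scale, the difference was 0.06 for Jun and 0.07 for Junb, on a scale where the median background row lay at -0.175.

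The Fos subunits were scarce. Fos, the classical partner of Jun, had levels of 19.8 with In-Cl, 17.9 with DPN, 10.1 with E2, 12.4 in hypoxia and 13.4 in the control, or between 9 and 20 approximate reads. Its counting intervals overlapped in all 5 libraries, and the intervals of its differences held 0 in all 5 comparisons, so no order was read. Fosb had 16.8 with In-Cl, 12.7 with DPN, 14.3 with E2, 17.5 in hypoxia and 6.3 in the control. The control had 8 approximate reads against 17 in hypoxia. Its counting interval overlapped that of every other library, and the interval of the log2 difference of 1.33 ran from 0.10 to 2.81. With 8 added to the levels in place of 1 the difference was 0.83, and after quantile normalization 0.98, both under 2-fold.

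Atf3, a stress-induced factor of the same bZIP class, was as scarce as the Fos subunits. It had 12.8 with In-Cl, 19.0 with DPN, 19.6 with E2, 17.5 in hypoxia and 8.9 in the control. Again all counting intervals overlapped that of the control. Hypoxia had 17 approximate reads against 11 in the control; the interval of the difference of 0.90 ran from -0.25 to 2.17, and a difference was not detectable at this depth.

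Ier2, a small early response gene, and Ier3, which encodes a regulator of cell survival, parted in hypoxia. Ier2 had levels of 263.5 with In-Cl, 271.3 with DPN, 245.1 with E2, 232.3 in hypoxia and 234.1 in the control. All 5 lay within a span of 0.22 on the log2 scale, the narrowest of the 10 genes, against a median span of 0.49 over rows at a mean level of 50 to 500. Ier3 had 1415.4 with In-Cl, 1366.2 with DPN, 1503.4 with E2, 1428.2 in hypoxia and 581.5 in the control. The 4 hypoxic libraries were close together and all stood well above the control. Hypoxia differed from the control by 1.30 (interval 1.16 to 1.43), and 0.76% of rows at a mean level of 500 to 5000 were as far above it.

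Klf4 and Klf5 were both lowest in the control. Klf4 had levels of 1703.3 with In-Cl, 1880.9 with DPN, 1913.8 with E2, 1899.3 in hypoxia and 1322.4 in the control. Klf5 had 173.6 with In-Cl, 180.1 with DPN, 169.2 with E2, 203.4 in hypoxia and 99.3 in the control. For each gene all 4 hypoxic libraries lay above the control. Hypoxia exceeded the control 1.44-fold for Klf4 (log2 0.52, interval 0.42 to 0.62), as were 4.52% of rows at a mean level of 500 to 5000. For Klf5 the excess was 2.04-fold (log2 1.03, interval 0.70 to 1.38), as were 3.63% of rows at 50 to 500. That value lies near the line: it was 0.88 with reads scaled to the library total, 0.97 after quantile normalization and 0.98 with 8 added in place of 1, each under 2-fold.

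Of the 7 genes inside the background filter, the control was below all 4 hypoxic libraries for 5 (Jun, Junb, Ier3, Klf4 and Klf5), above all of them for 0, and inside their range for Egr1 and Ier2. Among the background rows the control was below in 31.5% and above in 37.5%. For Ier3, Klf4 and Klf5 the control's counting interval lay under those of all 4 hypoxic libraries. For Jun and Junb it overlapped at least 1 of them, although the intervals of their differences in hypoxia against control excluded 0. The share of background rows with the control's interval under all 4 others was not computed. In hypoxia against control 59.3% of background rows had a difference interval that excluded 0. Fosb and Atf3, outside the filter, also had their lowest level in the control, which makes 7 of the 10 genes. Their counting intervals overlapped on few reads. In hypoxia against control the interval of the difference held 0 for Atf3 and, at 0.10 to 2.81, just excluded it for Fosb. These positions all rest on the same control library. Beside Klf4, in hypoxia against control 7 of 10 smooth muscle markers lay above 0 and 3 below, with a median of 0.12. Of the background rows 46.1% lay above 0, with a median of -0.031. With reads scaled to the library total 4 of the markers lay above 0 and 6 below, with a median of -0.03. On that scale 30.7% of the background rows lay above 0, with a median of -0.175.

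**Figure D2:**
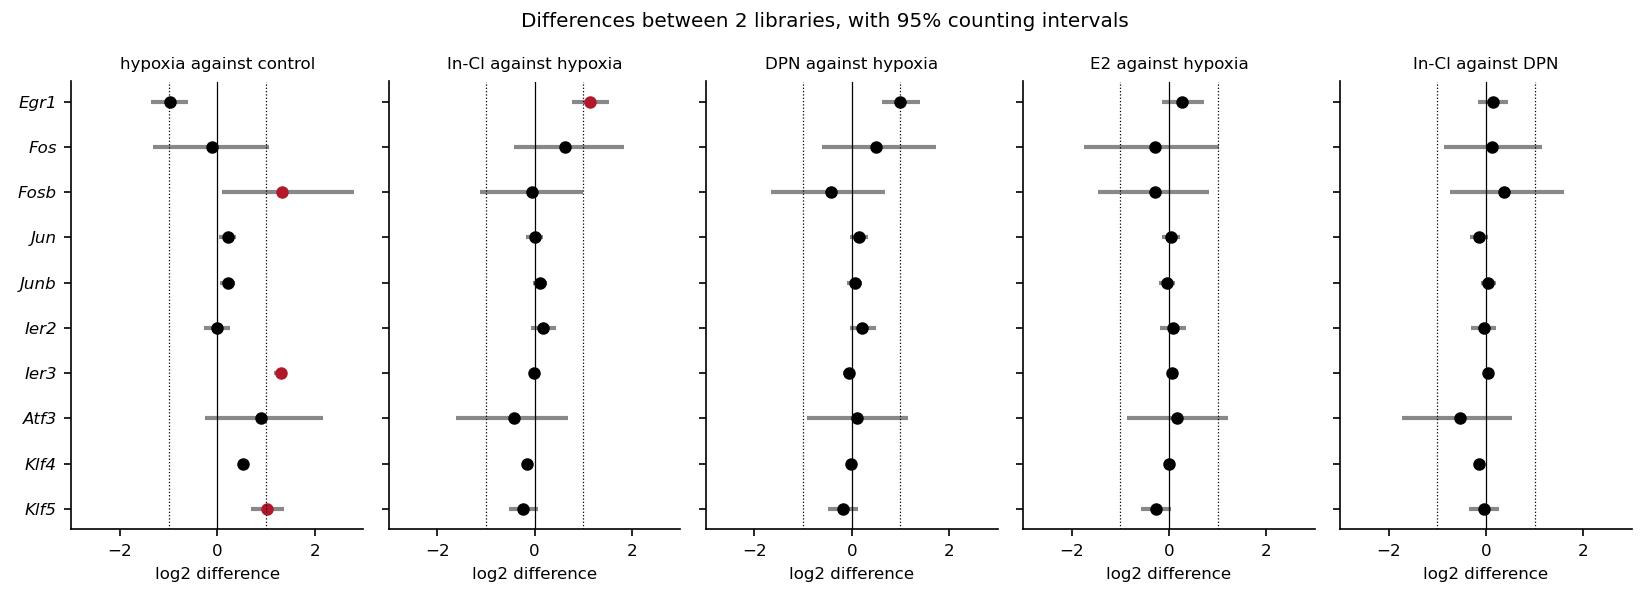
Log2 difference between 2 libraries (horizontal axes) for each gene, in the 5 comparisons; grey bars are 95% counting intervals, dotted lines mark 2-fold, and red points are at least 2-fold. Egr1 is on the left in hypoxia against control (-0.98) and on the right with In-Cl (1.14) and DPN (0.999) against hypoxia.

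The comparison of In-Cl with hypoxia alone addresses the effect of the indazole compound under low oxygen. Egr1 was 2.21-fold higher with In-Cl, and no other gene of the 10 reached 2-fold. So 1 of the 10 passed 2-fold upward, against 0.66% of the background rows, and 0 downward, against 0.33%. The median difference of the 10 genes was 0.00, beside -0.003 over the background rows.

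Egr1 rested on 198 approximate reads with In-Cl and 85 in hypoxia, and the difference was 1.14 (interval 0.78 to 1.54). Of rows at a mean level of 50 to 500, 0.375% were as far above hypoxia. Fos was higher by 0.63, but its interval of -0.43 to 1.84, on 20 reads against 12, holds 0. Klf4 was lower by -0.16 (interval -0.25 to -0.06), a size that 21.5% of rows at a mean level of 500 to 5000 reached. For the other 7 genes the interval held 0, while 44.2% of the background rows had an interval that excluded it, with differences from -0.42 (Atf3) to 0.18 (Ier2).

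The comparison of DPN with hypoxia alone does so for the agonist that favours estrogen receptor beta. Egr1 was again higher, with 167 approximate reads against 85, a difference of 0.999 (interval 0.63 to 1.40) that falls just short of 2-fold. Hence 0 of the 10 genes were counted at 2-fold, against 0.748% of the background rows in either direction. Of rows at a mean level of 50 to 500, 0.281% were as far above hypoxia as Egr1. The intervals of the other 9 genes held 0, against 27.9% of background rows with an interval that excluded it. Their differences ran from -0.43 (Fosb) to 0.50 (Fos), both on fewer than 20 reads, and Ier2 was at 0.22 (interval -0.04 to 0.49).

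The comparison of E2 with hypoxia alone does so for estradiol, at its own dose. None of the 10 genes was 2-fold different, against 0.728% of the background rows, and all 10 intervals held 0, whereas 29.6% of the background rows had one that excluded it. Egr1 was at 0.28 (interval -0.14 to 0.73), with 98 approximate reads against 85. Klf5 was at -0.26 (interval -0.57 to 0.05) and Ier3 at 0.07 (interval -0.04 to 0.18). E2 was given at 10 nM and the other ligands at 0.1 µM, so no difference between E2 and another ligand was computed.

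The 3 ligand comparisons and hypoxia against control all use the library of hypoxia alone, in which Egr1 was lowest, so the Egr1 differences in them are not independent. Levels of marker genes moved over the same libraries. The summed level of 10 smooth muscle markers was 336596 with In-Cl, 354406 with DPN, 409503 with E2, 425632 in hypoxia and 367489 in the control, and that of 6 fibroblast markers 4759, 4214, 4024, 3801 and 3272 in the same order. Most of the fibroblast sum was the collagen gene Col14a1, at 2989 in hypoxia and 1876 in the control, while Lum, which encodes lumican, went the other way (591 in hypoxia, 1214 in the control; -1.04). The 7 endothelial markers summed to 443, 460, 382, 382 and 260, most of it Tek. The 5 epithelial markers summed to 497 with In-Cl, 496 with DPN, 482 with E2, 564 in hypoxia and 221 in the control. Nearly all of that was the keratin Krt8, at 531 in hypoxia and 208 in the control (1.34), while Epcam and Cdh1 stayed under 25 in every library. The leukocyte marker Csf1r, a receptor of macrophages, was at 34.0 in hypoxia and 14.6 in the control (1.16), under 2-fold with 8 added in place of 1. The part of these shifts in the differences of the 10 genes was not tested.

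In-Cl and DPN were given at the same dose of 0.1 µM. Egr1 did not differ between them beyond counting error: the difference of In-Cl against DPN was 0.14, with an interval of -0.16 to 0.45. None of the 10 genes was 2-fold different, against 0.728% of the background rows. Klf4 was lower with In-Cl by -0.14 (interval -0.24 to -0.05), a size reached by 18.0% of rows at a mean level of 500 to 5000. The intervals of the other 9 genes held 0, against 36.3% of background rows whose interval excluded it, the widest being that of Fosb, from -0.75 to 1.60, so differences of the scarce genes were not detectable at this depth.

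**Figure D3:**
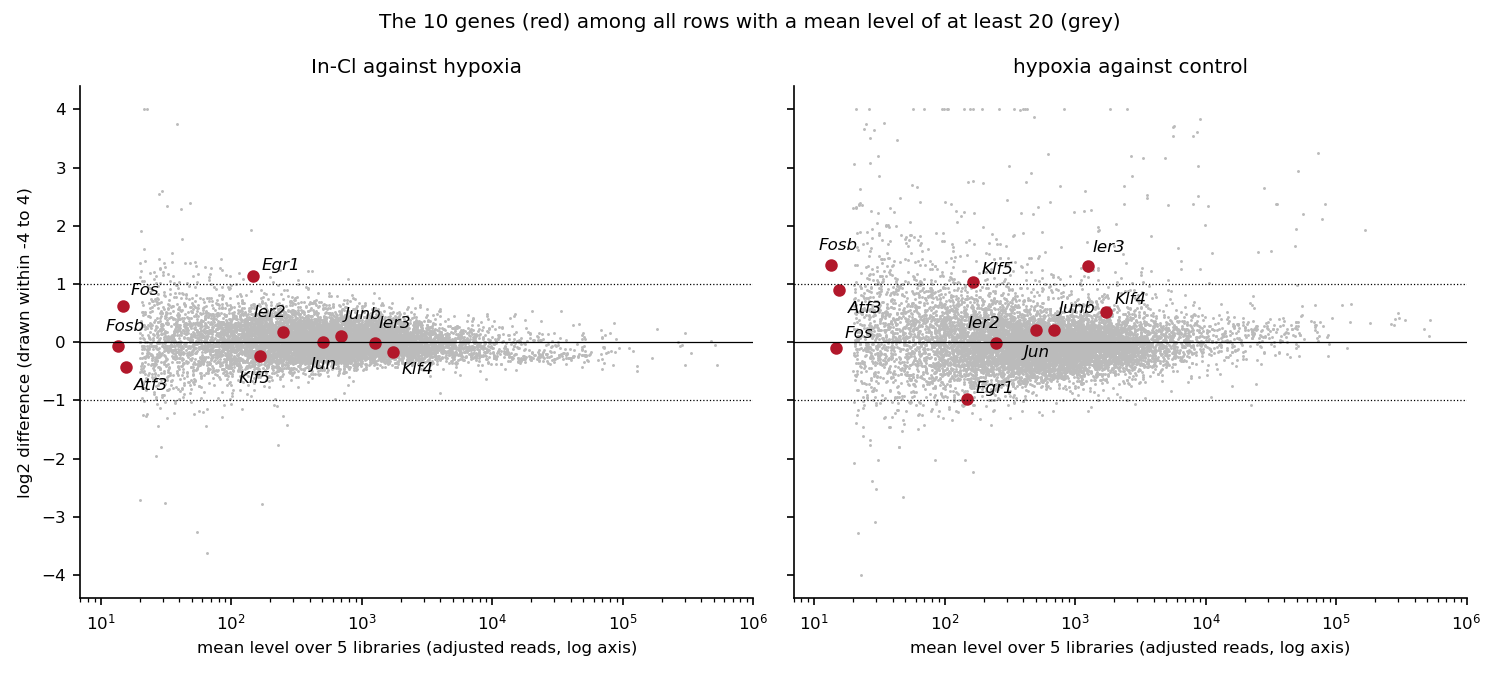
Log2 difference (vertical axis) against mean level over the 5 libraries (log axis), with In-Cl against hypoxia on the left and hypoxia against control on the right; grey points are rows with a mean level of at least 20, drawn within -4 to 4, and red points the 10 genes. Egr1 stands at the upper edge of the cloud on the left and the lower edge on the right, and Ier3 and Klf5 above 2-fold on the right.

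The other genes of the pathway were taken from lists by role, with the same filter of a mean level of at least 20. In hypoxia against control 46.1% of the background rows lay above 0, and 30.7% with reads scaled to the library total, a scaling that moves the background median to -0.175 and the list medians with it. Counts at 2-fold stand beside background shares of 3.54% higher and 0.923% lower there, and 0.66% and 0.33% with In-Cl against hypoxia; in lists this short 1 gene is already a larger share, so such counts only describe the lists. Upstream, the MAP kinases, the kinases above and below them, serum response factor and its partners were mostly level. Of 19 such genes, 1 passed 2-fold upward in hypoxia against control and 0 downward, with a median difference of 0.08, or -0.06 with reads scaled to the library total. That 1 was Map2k1, the kinase MEK1 directly above ERK, with a level of 3595 in hypoxia and 1489 in the control (1.27, interval 1.19 to 1.35). It stayed between 3460 and 3991 in the ligand libraries. Its close relative Map2k2, MEK2, had 1637 in hypoxia and 1882 in the control, the lowest difference of the list at -0.20. Srf, the factor that binds CArG boxes, was level, with 1173 with In-Cl, 1304 with DPN, 1317 with E2, 1368 in hypoxia and 1211 in the control.

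Among other factors of the AP-1, ATF and MAF classes, 11 passed the filter. In hypoxia against control 10 of the 11 lay above 0 (9 with reads scaled to the library total) and 1 passed 2-fold upward; the median was 0.34, or 0.19 with that scaling. That gene was Maff, a small MAF protein without an activation domain, at 354 in hypoxia and 138 in the control (1.35, interval 1.08 to 1.63). With In-Cl against hypoxia, 9 of the 11 lay below 0, beside 50.4% of the background rows. With reads scaled to the library total 8 of the 11 did, beside 38.6%. Fosl1, the Fos relative FRA1, was at least 2-fold lower with In-Cl on few reads (16.7 against 36.0, difference -1.06, interval -2.03 to -0.23). It was under 2-fold with reads scaled to the library total or with 8 added in place of 1. Atf7 was the highest of the list with each ligand against hypoxia, at 0.67 for In-Cl, 0.36 for DPN and 0.43 for E2.

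The relatives of Egr1 were scarce or level. Egr2, Egr3 and Egr4 had mean levels under 20, at 4.38, 0.967 and 0.20. The orphan nuclear receptor Nr4a1, itself an early gene, had 49.3 with In-Cl, 54.1 with DPN, 67.9 with E2, 64.0 in hypoxia and 51.2 in the control; its intervals held 0 in all 5 comparisons. Nab2, a corepressor that binds Egr1 and limits it, was 1.73-fold higher in hypoxia, at 2012 against 1161 in the control (0.79, interval 0.69 to 0.89). Of the 4 genes of this list that passed the filter, 0 were 2-fold different in any of the 5 comparisons.

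In the KLF and SP class, 14 other genes passed the filter, and 13 of them lay above 0 in hypoxia against control (9 with reads scaled to the library total), with a median of 0.32, or 0.17 with that scaling. Klf2, a factor best known from endothelium under flow, was at least 2-fold higher, at 617 in hypoxia and 294 in the control (1.06, interval 0.87 to 1.26, but 0.92 with reads scaled to the library total). So was Klf13, on fewer reads (52.5 against 18.7; 1.44, interval 0.76 to 2.30). Sp2 was the 1 gene below 0, at -0.03. None of the 14 was 2-fold different with a ligand against hypoxia, where the list medians were 0.04 for In-Cl, 0.10 for DPN and 0.07 for E2.

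Early genes outside these families went both ways. Of 26 that passed the filter, 16 lay above 0 and 10 below in hypoxia against control, with a median of 0.16. With reads scaled to the library total these were 14 above, 12 below and a median of 0.02. Plk3, a stress-responsive polo-like kinase, was at least 2-fold lower, at 74.4 in hypoxia and 181 in the control (-1.27, interval -1.69 to -0.90), and it had 73.0 in the In-Cl library, 68.0 in the DPN library and 45.7 in the E2 library. At the other end Gadd45a, a growth arrest gene, was at 0.89 (interval 0.74 to 1.04). With In-Cl against hypoxia the kinase gene Sgk1 was at least 2-fold lower, at 21.7 against 45.3 (-1.03, interval -1.87 to -0.29), and DPN gave 23.5; the In-Cl difference was under 2-fold with reads scaled to the library total or with 8 added in place of 1.

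Among 15 feedback inhibitors of the pathway, 2 passed 2-fold upward in hypoxia against control and 0 downward, around a median of 0.00, or -0.15 with reads scaled to the library total. Spry1, an inhibitor of receptor tyrosine kinase signalling, had 85.6 in hypoxia and 31.8 in the control (1.40, interval 0.86 to 2.02). Errfi1, which restrains the EGF receptor, had 137 in hypoxia and 55.3 in the control (1.30, interval 0.87 to 1.76). Spred1, a Ras pathway inhibitor, was the highest of the list with each ligand against hypoxia, under 2-fold, at 0.63 for In-Cl, 0.75 for DPN and 0.94 for E2. Its level in hypoxia alone, 113, was below the control at 144.

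Of 16 vascular genes known as targets of Egr1, AP-1 or Klf5, 2 passed 2-fold upward in hypoxia against control and 0 downward; 11 lay above 0, with a median of 0.27, or 9 and 0.12 with reads scaled to the library total. These were Hmox1, heme oxygenase, at 4623 in hypoxia and 1969 in the control, and Ptgs2, the cyclooxygenase of the series title, at 258 in hypoxia and 111 in the control. Pdgfb, a growth factor for smooth muscle, was at 0.97 (interval 0.70 to 1.25). With In-Cl against hypoxia, where Egr1 was higher, 12 of the 16 lay below 0, beside 50.4% of the background rows. Of the 16, 0 were 2-fold different, and the median was -0.19. With reads scaled to the library total 11 of the 16 lay below 0, beside 38.6%, with a median of -0.12. With DPN against hypoxia, where Egr1 was also higher, 10 of the 16 lay below 0, with a median of -0.05. With reads scaled to the library total 8 lay on each side, beside 39.7% of the background rows below 0. Over the background rows the medians on the deposited scale were -0.003 for In-Cl and -0.001 for DPN. The list also holds targets of AP-1 and Klf5, and a link of these signs to Egr1 was not tested.

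**Figure D4:**
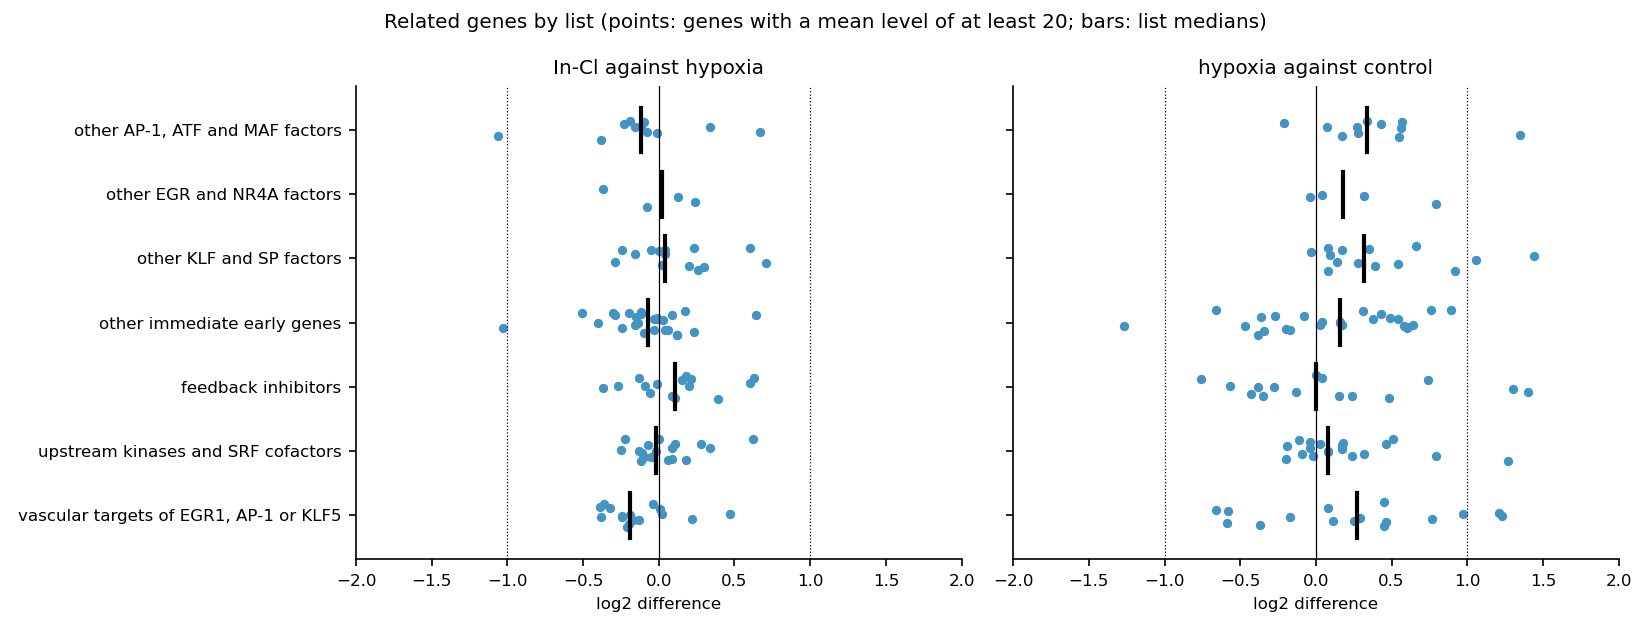
Log2 difference of single genes (blue points; vertical scatter has no meaning) in the lists of related genes, with In-Cl against hypoxia on the left and hypoxia against control on the right; black bars are list medians and dotted lines mark 2-fold. In the hypoxia panel the median is 0.34 for the AP-1, ATF and MAF list and 0.32 for the KLF and SP list.

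Profiles over the 5 libraries were compared for the genes with a mean level of at least 50 and a log2 span of at least 1, which were Egr1 (1.14), Ier3 (1.37) and Klf5 (1.03). A span that wide was seen in 9.48% of rows at a mean level of 50 to 500 and in 2.58% at 500 to 5000. Within the 4 hypoxic libraries alone the span was 1.14 for Egr1 but 0.14 for Ier3 and 0.26 for Klf5, and 1.76% of rows at 50 to 500 spanned at least 1 there. The likeness of 2 genes was the root mean square difference of their log2 profiles, each centred on its mean over the 5 libraries, over 9268 named genes.

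Nearest to Egr1 were Gata2 (0.154), Chm (0.179) and Atg16l2 (0.183). Gata2, a GATA factor, had levels of 80.0 with In-Cl, 77.3 with DPN, 57.4 with E2, 36.3 in hypoxia and 87.4 in the control. As with Egr1, hypoxia alone was lowest. Nearest to Ier3 were Itga11, an integrin chain for collagen (0.026), Mpp2 (0.047) and Narf (0.053). Nearest to Klf5 were Masp1 (0.048), Klf2 (0.05) and the syndecan Sdc4 (0.053), so that another Krüppel-like gene was among the 3. These likenesses rest on 5 libraries, and for Ier3 and Klf5 mainly on the control.

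**Figure D5:**
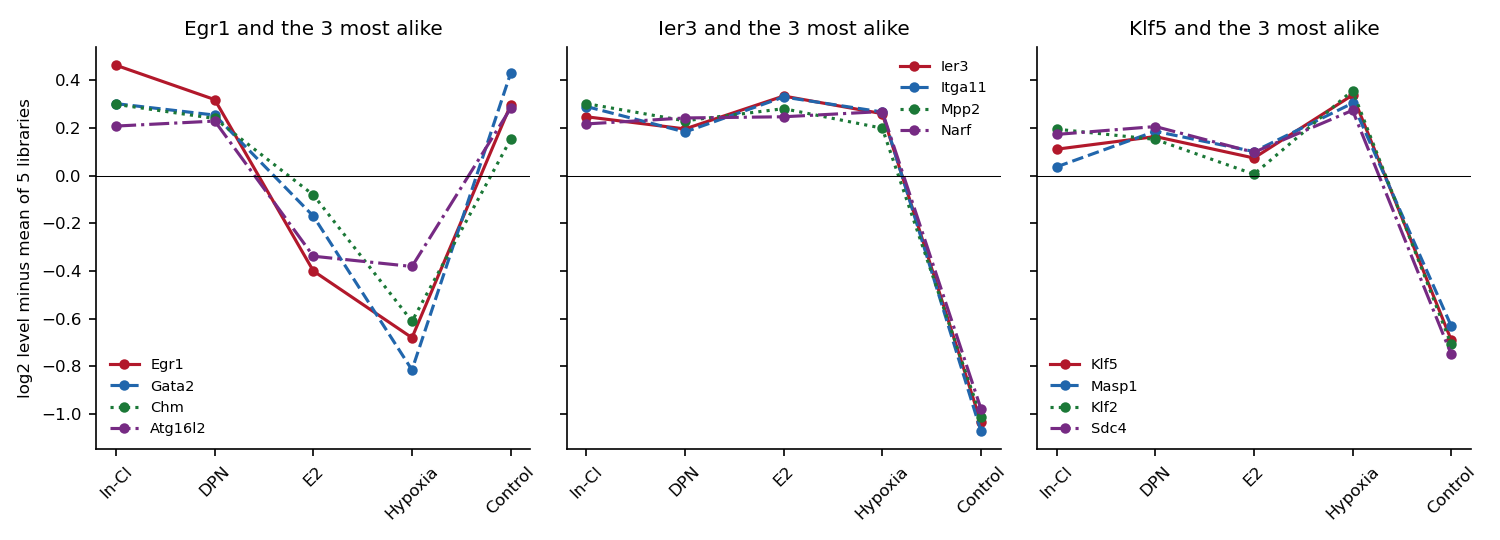
Log2 level minus the mean over the 5 libraries (vertical axis) for Egr1, Ier3 and Klf5 (red) and the 3 genes nearest to each; lines only join the points of a gene. Egr1 dips in hypoxia alone, and Ier3 and Klf5 in the control.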

How the data were processed

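Trizol extracts of the cells went into SMARTer Stranded libraries, per the labels' protocols. The submitters' processing notes list TopHat, edgeR and build rn6; how and with which annotation and strand setting reads were counted is not given in the sources used here, so reads of overlapping genes cannot be told apart. The authors deposited 1 log2 value per row and library. These were taken as log2 of an adjusted read count plus 1, because low values fell on equal steps.

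The worth of 1 read was found from the equal steps of values up to 2.5 reads (0.839 in the control to 1.095 with E2). Within 0.2 read of a whole number lay 87.9% of these values in the control and at least 99.1% elsewhere. Dividing by the step gave approximate reads, and no count model was fitted. Calls and intervals were run on simulated Poisson counts with exact steps. Those hold no spread between cultures, so they check only the calculation. Members and lists were chosen with earlier results of these data known. Named genes are the 10 members; list genes at least 2-fold different at a mean level of at least 20 (at most 4 per list), or else the highest and the lowest, of which some are given; and the 3 nearest profiles. A few other genes (Acta2, Myh11, Des, Tek, Cd14, Col14a1, Lum, Krt8, Csf1r, Srf, Nr4a1, Map2k2, Gadd45a, Spred1, Atf7, Pdgfb, Egr2, Egr3, Egr4) were named after their values were seen. RefSeq promoters (GRCr8) were matched by symbol. Python 3.11.15 with numpy 2.4.6, pandas 2.3.3, scipy 1.17.1 and matplotlib 3.10.9 was used.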

Additional observations from a re-analysis of the deposited data

How the results depend on the processing

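The count of genes at least 2-fold different in hypoxia against control was 3; it was 1 with 8 added in place of 1, 5 at 1.5-fold, 2 after quantile normalization (Ier3 higher, Egr1 lower) and 3 with reads scaled to the library total, where Egr1 was counted as lower and Klf5 was not counted. For In-Cl against hypoxia it was 1, and 2 at 1.5-fold, where Fos joined Egr1. For DPN against hypoxia it was 0, and 1 (Egr1) with no added 1, with median centring, with reads scaled to the library total, after quantile normalization and at 1.5-fold. For E2 against hypoxia and In-Cl against DPN it was 0 under all 10 alternatives. Some of these could give only 0, because they only remove calls or leave these genes unchanged. The count of genes with the control below all 4 hypoxic libraries was 7, and 7 or 8 under 3 scalings added after the data were seen. Of 350 single values under an alternative, 348 stayed inside their counting interval, which is wide for Fos, Fosb and Atf3. The exceptions, with reads scaled to the library total in hypoxia against control, were Ier3 (1.15) and Klf4 (0.38). That scaling moved the median background row to -0.175. Summing the rows of a symbol, or raising values under 3 reads to 3 reads, could move no value. Each gene had 1 row and at least 8 reads. Among the related genes, checked under 4 settings chosen after the data were seen, Klf2 was under 2-fold with reads scaled to the library total (0.92), Fosl1 and Sgk1 were so there and with 8 added (Fosl1 -0.83, Sgk1 -0.84), and Pdgfb passed 2-fold with median centring. Scaled to the library total, Map2k1 stood at 1.13 and Hmox1 at 1.09 in hypoxia against control. No called value changed sign. No paired analysis was possible because each condition is 1 library, and no library could be left out within a condition. Depth limits Fos, Fosb and Atf3, at 8 to 20 reads.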
